A study of Mus musculus with 6 samples.

Results

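Toll-like receptors (TLRs) and the co-receptor CD14 were examined in liver non-parenchymal cells, a fraction that holds Kupffer cells, endothelial cells, stellate cells and recruited leukocytes. The genes were 10 of the 53546 in the deposited count tables, matched by gene name: Tlr1, Tlr2, Tlr4, Tlr5 and Tlr6, whose receptors sit at the cell surface, Tlr7, Tlr8, Tlr9 and Tlr13, whose receptors work in endosomes, and Cd14. Cells came from male SRA-/- mice (3 libraries) and male wild type mice (3 libraries), each dosed intraperitoneally with 400 mg/kg acetaminophen, and cells were taken after 6 h. SRA-/- mice lack scavenger receptor A, the product of Msr1. The allele, the strain background, the age of the mice and the number of mice behind a library were not in the labels used here. Both groups received acetaminophen, so no value below is a response to the drug. Other Toll-like receptor genes were not analysed here.

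TLRs are membrane proteins that recognise microbial molecules and some molecules of damaged cells through a leucine-rich repeat ectodomain. Through adaptors such as MyD88 they start kinase cascades that end in NF-kB, AP-1 and interferon regulatory factors. The surface receptors bind lipopeptides, lipopolysaccharide and flagellin, while the endosomal receptors bind nucleic acids and reach their compartment with the chaperone UNC93B1. In the liver, Kupffer cells meet gut-derived products and dead hepatocytes in the sinusoids, and other leukocytes and endothelial cells also carry TLRs.

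Promoter windows of the receptors were taken from RefSeq on build GRCm38.p6, which differs from the mm39 build of the count files. Each window runs from 250 bases before to 50 bases after an annotated start, and the set used held 9 windows of 7 of the 10 genes. Tlr4, Tlr7 and Cd14 were not among them. Shown are the windows of Tlr2 and Tlr6, surface receptors with higher values in SRA-/- cells, and of the endosomal receptors Tlr13 and Tlr9, which had the highest and the lowest level of that class. Each is read 5′ to 3′ on the strand of its gene, and capitals mark matches, on either strand, to the motifs searched.
Tlr2, chr3:83841559-83841858, minus strand: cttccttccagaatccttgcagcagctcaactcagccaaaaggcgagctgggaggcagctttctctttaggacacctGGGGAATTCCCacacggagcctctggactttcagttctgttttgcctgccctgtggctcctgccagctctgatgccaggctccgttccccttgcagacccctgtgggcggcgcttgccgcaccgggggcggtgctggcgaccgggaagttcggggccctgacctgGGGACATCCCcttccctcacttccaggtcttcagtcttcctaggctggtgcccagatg
Tlr6, chr5:64959117-64959416, minus strand: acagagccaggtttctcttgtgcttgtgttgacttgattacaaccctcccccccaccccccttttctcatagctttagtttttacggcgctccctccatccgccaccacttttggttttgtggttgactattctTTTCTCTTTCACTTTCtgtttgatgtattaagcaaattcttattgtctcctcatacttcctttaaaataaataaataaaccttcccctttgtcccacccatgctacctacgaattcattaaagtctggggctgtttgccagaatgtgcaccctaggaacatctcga
Tlr13, chrX:106143025-106143324, plus strand: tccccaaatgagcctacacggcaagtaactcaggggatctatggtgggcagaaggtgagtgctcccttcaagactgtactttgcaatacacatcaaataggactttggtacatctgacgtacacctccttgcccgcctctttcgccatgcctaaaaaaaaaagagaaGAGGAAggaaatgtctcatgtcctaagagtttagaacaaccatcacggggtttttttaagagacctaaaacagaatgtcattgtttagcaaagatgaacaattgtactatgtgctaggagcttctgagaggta
Tlr9, chr9:106222348-106222647, plus strand: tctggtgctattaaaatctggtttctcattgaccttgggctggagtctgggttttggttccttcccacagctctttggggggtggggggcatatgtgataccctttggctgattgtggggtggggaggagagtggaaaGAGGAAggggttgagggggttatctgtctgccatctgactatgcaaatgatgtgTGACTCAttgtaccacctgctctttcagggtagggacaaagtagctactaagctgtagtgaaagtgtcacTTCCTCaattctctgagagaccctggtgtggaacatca
The 4 motifs were the NF-kB consensus, the AP-1 element TGANTCA, the ETS core GAGGAA, which factors such as PU.1 of myeloid cells bind, and the core of the interferon-stimulated response element. Among the 9 windows, Tlr2 alone held the NF-kB consensus, which 8.46% of all 32851 windows hold. Its matches began at -173 and -172, overlapping each other, and at -8 from the start. Tlr9 alone held the AP-1 element, at -58, and 7.81% of all windows hold it. The ETS core was in windows of Tlr1, Tlr8, Tlr9 and Tlr13 and in 28.3% of all windows. The interferon element occurred in 1 of the 2 Tlr6 windows, with overlapping matches at -116 and -110, and in 3.44% of all windows. A match describes the letters and does not show that a factor binds there.

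Libraries held 23757203 to 44003902 counts. A count of 6, about 3 fragments with both mates counted, was taken as the detection floor and equals 0.136 to 0.253 CPM, the counts scaled to a common library size. Genes of the mitochondrial genome took 6.64% to 21.1% of counts, and a list of 20 hepatocyte genes took 3.86% to 11.5%. Markers of Kupffer cells, sinusoidal endothelium and stellate cells, led by Clec4f, Stab2 and Reln, were detected in every library. Msr1 still gave 40.2, 33.6 and 42.0 CPM in SRA-/- libraries, against 38.6, 73.5 and 114 CPM in wild type libraries. Msr1 counts were summed over the whole gene and the disrupted part is not named in the labels, so they do not check the genotype. In such bulk RNA, fewer cells of a type and less RNA per cell cannot be told apart.

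Scaled by exon length, Cd14 stood far above every receptor gene. CD14 is the membrane and soluble protein that hands lipopolysaccharide to the TLR4 complex. Over the 6 libraries Cd14 averaged 143 ± 40.9 CPM per kilobase (SD), a level above that of 99.0% of tested genes. Tlr2 followed at 4.66 ± 2.19, above 67.5% of tested genes. Tlr13, Tlr7 and Tlr8 came next at 2.44 ± 0.67, 2.02 ± 0.39 and 2.02 ± 0.40 CPM per kilobase. Tlr9 had 1.53 ± 0.15, Tlr4 1.39 ± 0.26 and Tlr5 1.06 ± 0.62 CPM per kilobase. Tlr6 and Tlr1 were lowest, at 0.58 ± 0.25 and 0.29 ± 0.19, the last above 11.4% of tested genes.

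Only part of this order held from library to library. Cd14 over Tlr2, Tlr2 over Tlr13 and Tlr6 over Tlr1 held in 6 of 6 libraries, each by more than 1 SD of the log2 ratio. Tlr8 over Tlr9 held in 5 of 6, again by more than 1 SD. Tlr13 and Tlr7, Tlr7 and Tlr8, Tlr9 and Tlr4, Tlr4 and Tlr5, and Tlr5 and Tlr6 differed by less than their spread.

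**Figure D1:**
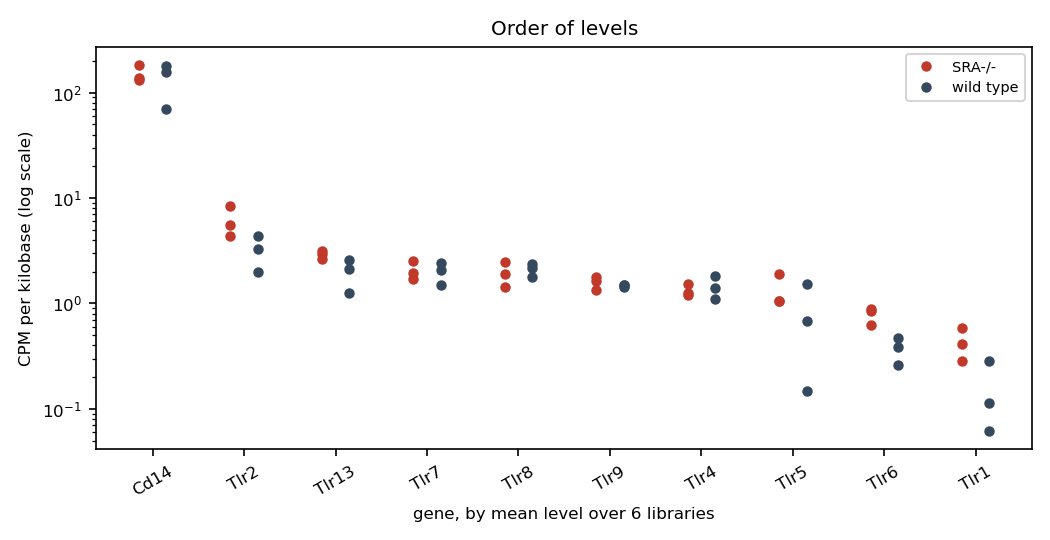
Level of each gene as TMM-scaled CPM per kilobase of exon (log axis), 1 point per library, SRA-/- left of wild type within each gene, genes ordered by their mean over 6 libraries. Cd14 lies between 70.5 and 182 CPM per kilobase, above every receptor, and Tlr1 and Tlr6 lie at the low end.

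The question of the comparison is how loss of scavenger receptor A bears on liver inflammation after acetaminophen. None of the 10 genes passed the test: with edgeR's quasi-likelihood fit and a threshold of 0.05 after adjustment, 0 were called, where 0.0487% of the 20541 tested genes were, and 0.0341% as higher in SRA-/-. DESeq2 and limma-voom also called 0 of the 10. Before adjustment 3 had a p under 0.05 by edgeR, Tlr1, Tlr2 and Tlr6, all with higher values in SRA-/- libraries, against 2.32% of tested genes in that direction and 3.22% in either. Groups did not overlap for Tlr1, Tlr6 and Tlr13, all higher in SRA-/-, against 3.97% of tested genes in that direction, 3.33% in the other and 7.3% in all. These 3 and Tlr2 also stood lower in wild type replicate 1 than in any other library, as did Tlr4, Tlr7 and Cd14.

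TLR2 forms pairs with TLR1 or TLR6 and binds bacterial lipopeptides. Tlr2 (chromosome 3, 83743579 to 83749074, mm39) had 25.3, 13.2 and 16.7 CPM in SRA-/- replicates 1, 2 and 3, against 5.98, 9.95 and 13.2 CPM in wild type replicates 1, 2 and 3. SRA-/- replicate 1 was highest, and SRA-/- replicate 2 lay just under wild type replicate 3, so the groups overlapped. The means were 18.4 ± 6.24 CPM in SRA-/- and 9.71 ± 3.62 CPM in wild type (SD, n = 3 each). The fitted difference was 0.92 ± 0.33 on the log2 scale (SE), and edgeR gave an adjusted p of 0.9999, 0.0188 unadjusted. Leaving out SRA-/- replicate 1 gave 0.62 on that scale, and edgeR's unadjusted value was then 0.102.

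TLR6 is the partner of TLR2 for diacylated lipopeptides. Tlr6 (chromosome 5, 65109374 to 65117440) had 3.16, 3.31 and 2.32 CPM in SRA-/- replicates 1, 2 and 3, against 0.962, 1.44 and 1.75 CPM in wild type replicates 1, 2 and 3. Every SRA-/- library was above every wild type library. For Tlr6 edgeR gave a log2 fold change of 1.08 ± 0.33 (SE) and an adjusted p of 0.9976, 0.00853 unadjusted. Whichever library was left out, the unadjusted edgeR p of Tlr6 stayed between 0.00620 and 0.0306. Its counts were low, 51 to 145 in SRA-/- and 28 to 59 in wild type libraries.

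TLR1 pairs with TLR2 for triacylated lipopeptides, and Tlr1 (chromosome 5, 65082022 to 65090906) is the neighbour of Tlr6, 18467 bases away with no annotated gene between. It had 44, 41 and 43 counts in SRA-/- replicates 1, 2 and 3, against 6, 10 and 32 in wild type replicates 1, 2 and 3. Wild type replicate 1 was thus at the detection floor. In CPM these were 0.958, 1.37 and 1.95 in SRA-/- libraries against 0.206, 0.380 and 0.948 in wild type libraries, and the groups met without overlap. For Tlr1 edgeR gave a log2 fold change of 1.43 ± 0.56 (SE) and an adjusted p of 0.9999, 0.0293 unadjusted. Dropping wild type replicate 3 gave 2.26 and an unadjusted edgeR p of 0.00224, and dropping SRA-/- replicate 3 gave 1.15 and 0.103. Unadjusted edgeR p-values of 0.0555, 0.0620 and 0.0880 were found for Tlr1 without SRA-/- replicate 2, wild type replicate 1 and wild type replicate 2.

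Within a library the level of Tlr2 was 4.93 to 9.92 times that of Tlr6 in SRA-/- and 7.68 to 9.35 times in wild type libraries, per length. For Tlr2 over Tlr1 this ratio was 9.47 to 29.3 in SRA-/- and 15.5 to 32.2 in wild type libraries. Both ranges overlapped between the groups.

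TLR4 recognises lipopolysaccharide together with MD-2 and CD14. Tlr4 (chromosome 4, 66745821 to 66848521) had 7.03, 8.42 and 6.72 CPM in SRA-/- replicates 1, 2 and 3, against 6.08, 7.86 and 10.2 CPM in wild type replicates 1, 2 and 3. Wild type held both the lowest and the highest library. On the log2 scale Tlr4 differed by -0.12 (95% interval -0.67 to 0.42), and edgeR gave an adjusted p of 0.9999, 0.628 unadjusted. Cd14 (chromosome 18, 36858120 to 36859851) had 314, 239 and 227 CPM in SRA-/- replicates 1, 2 and 3, against 122, 310 and 270 CPM in wild type replicates 1, 2 and 3. Apart from wild type replicate 1, all 5 libraries lay between 227 and 314 CPM. Its log2 fold change was 0.15 (95% interval -0.58 to 0.89), with an unadjusted edgeR p of 0.652, and -0.15 without wild type replicate 1. Per length, Cd14 exceeded Tlr4 by 91.1 to 143 times in SRA-/- and by 64.4 to 126 times in wild type libraries. Ly96, which encodes MD-2 and was picked for this role after its values were seen, had 2.13, 2.47 and 2.09 CPM in SRA-/- libraries, against 1.61, 2.13 and 2.66 CPM in wild type libraries.

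TLR5 is the receptor of flagellin, and its gene had the widest range of the 10, as highest over lowest library. Tlr5 (chromosome 1, 182782353 to 182804010) had 5.44, 9.89 and 5.49 CPM in SRA-/- replicates 1, 2 and 3, against 7.94, 3.53 and 0.770 CPM in wild type replicates 1, 2 and 3. The highest library was 12.8 times the lowest, and the wild type libraries spanned most of that range. On the log2 scale Tlr5 differed by 0.77 (95% interval -0.64 to 2.19), and edgeR gave an adjusted p of 0.9999, 0.251 unadjusted. It was 0.27 without wild type replicate 3 and 1.72 without wild type replicate 1, where the unadjusted edgeR p was 0.0283. Wild type replicate 1 was the highest of its group for Tlr5.

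**Figure D2:**
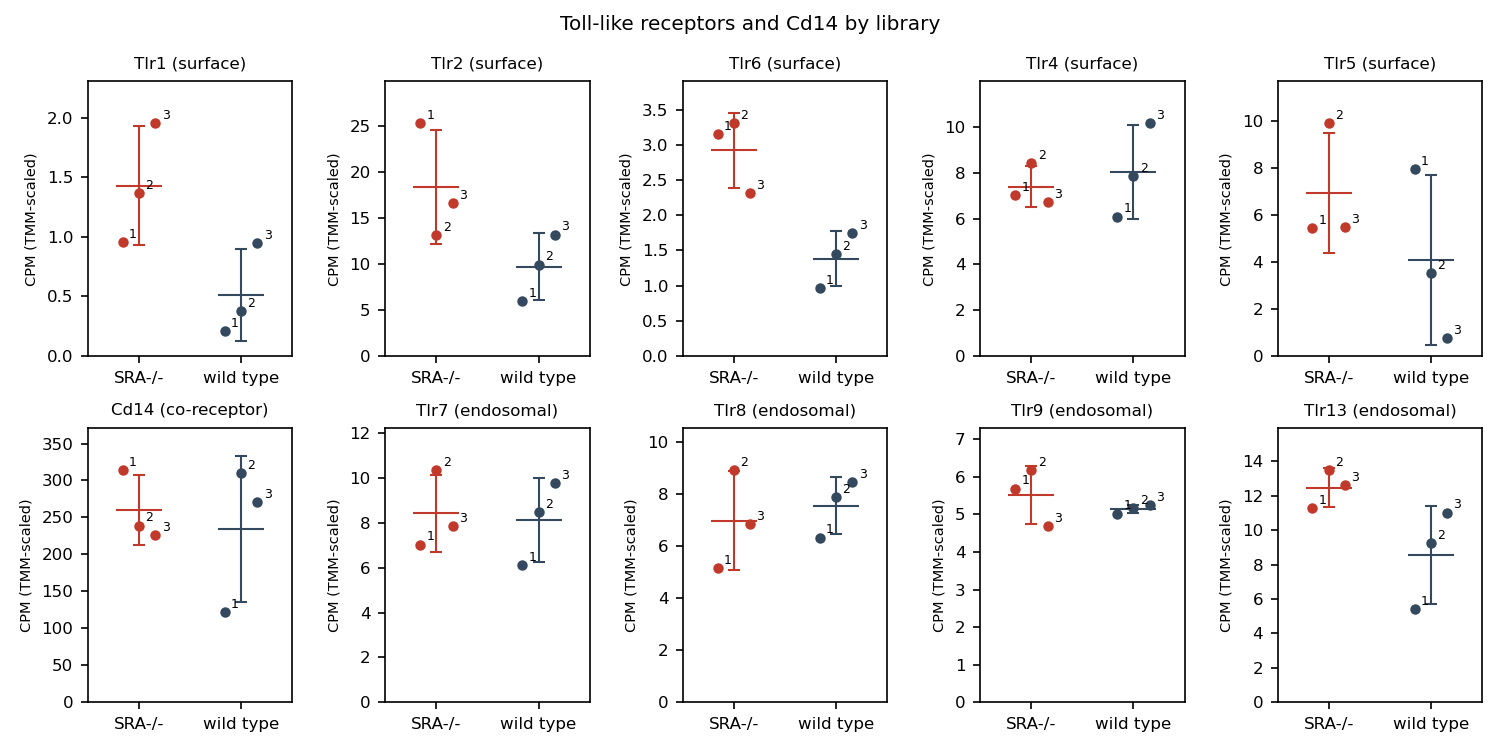
TMM-scaled CPM of the 10 genes on linear axes from 0, SRA-/- left of wild type, 1 point per library numbered by replicate, with horizontal mark and bars for the mean and SD (n = 3 each). Tlr6, Tlr1 and Tlr13 are higher in each SRA-/- than in each wild type library, SRA-/- replicate 2 is just under wild type replicate 3 for Tlr2, and Tlr4, Tlr5, Tlr7, Tlr8, Tlr9 and Cd14 overlap.

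Among endosomal receptors, TLR13 recognises bacterial ribosomal RNA in mice. Tlr13 (chromosome X, 105186810 to 105204099) had 11.3, 13.5 and 12.6 CPM in SRA-/- replicates 1, 2 and 3, against 5.43, 9.23 and 11.01 CPM in wild type replicates 1, 2 and 3. SRA-/- replicate 1 lay just above wild type replicate 3, so the groups did not overlap. For Tlr13 edgeR gave a log2 fold change of 0.54 ± 0.26 (SE) and an adjusted p of 0.9999, 0.0696 unadjusted. It was 0.31 without wild type replicate 1 and 0.77 without wild type replicate 3, where the unadjusted edgeR p was 0.0172.

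TLR7 and TLR8 respond to single-stranded RNA and its breakdown products, and their genes lie side by side on chromosome X, 40599 bases apart. Tlr7 (166087925 to 166113554) had 7.03, 10.4 and 7.85 CPM in SRA-/- replicates 1, 2 and 3, against 6.12, 8.47 and 9.77 CPM in wild type replicates 1, 2 and 3. Tlr8 (166025692 to 166047325) had 5.14, 8.92 and 6.85 CPM in SRA-/- replicates 1, 2 and 3, against 6.32, 7.86 and 8.44 CPM in wild type replicates 1, 2 and 3. SRA-/- replicate 2 was highest for both, and the groups overlapped for both. The log2 fold change was 0.05 (95% interval -0.51 to 0.61) for Tlr7 and -0.12 (95% interval -0.69 to 0.46) for Tlr8. As folds of SRA-/- over wild type, those intervals run from 0.702 to 1.53 for Tlr7 and from 0.620 to 1.37 for Tlr8. Differences within them could not be seen at this depth and number of libraries. Per length, Tlr7 stood at 1.01 to 1.20 times Tlr8 in SRA-/- and at 0.850 to 1.02 times in wild type libraries.

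TLR9 detects unmethylated CpG DNA and can respond to mitochondrial DNA. Tlr9 (chromosome 9, 106099797 to 106104082) had the narrowest range of the 10 genes by the same measure, with 5.68, 6.18 and 4.68 CPM in SRA-/- replicates 1, 2 and 3 against 5.02, 5.16 and 5.24 CPM in wild type replicates 1, 2 and 3. Its highest library was 1.32 times its lowest. The SRA-/- values lay on both sides of the narrow wild type range. On the log2 scale Tlr9 differed by 0.10 (95% interval -0.39 to 0.60), and edgeR gave an adjusted p of 0.9999, 0.652 unadjusted. None of the 10 genes overlapped another annotated gene, so counting without strand does not mix in reads of an antisense partner.

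**Figure D3:**
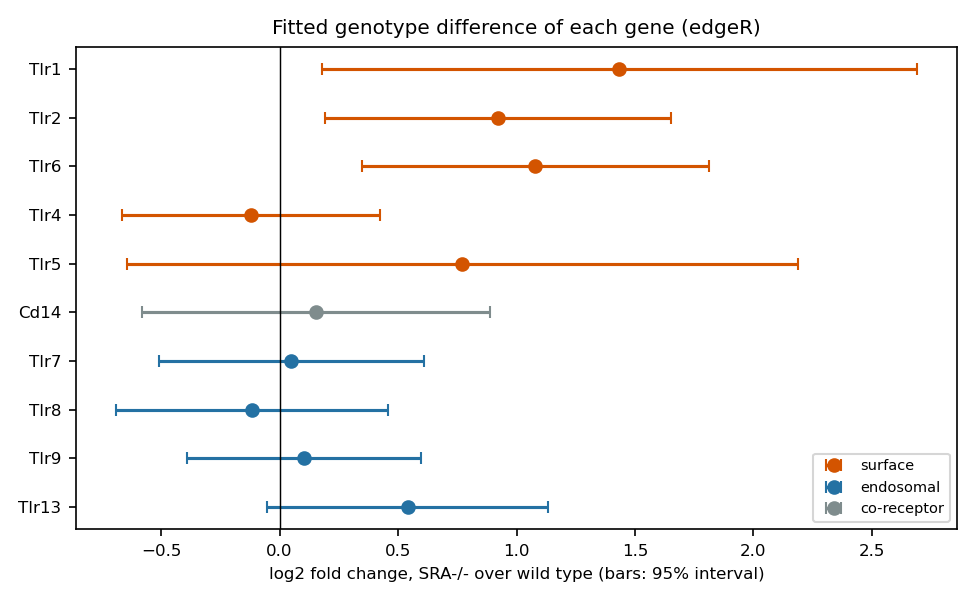
Fitted log2 fold change of each gene, SRA-/- over wild type, with its 95% interval by edgeR, surface receptors in orange, endosomal in blue and Cd14 in grey. The intervals of Tlr1, Tlr2 and Tlr6 lie above 0 before any adjustment and those of the other 7 genes include 0.

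Surface and endosomal receptors were set beside each other within each library. The share of a class takes library size out, while the sums themselves depend on the scaling of the libraries. The 5 surface receptors summed to 11.8, 9.09 and 8.999 CPM per kilobase in SRA-/- replicates 1, 2 and 3, against 4.93, 5.90 and 7.11 in wild type replicates 1, 2 and 3. The 4 endosomal receptors summed to 7.41, 9.94 and 8.11 CPM per kilobase in SRA-/- replicates 1, 2 and 3, against 5.97, 7.89 and 8.81 in wild type replicates 1, 2 and 3. The endosomal sums overlapped between the groups. The surface sums did not and were higher in SRA-/-, which 3.97% of single tested genes also showed. Surface receptors thus took 61.5%, 47.8% and 52.6% of the receptor level in SRA-/- replicates 1, 2 and 3, against 45.2%, 42.8% and 44.7% in wild type replicates 1, 2 and 3. Group means were 54.0% ± 6.97 in SRA-/- and 44.2% ± 1.30 in wild type (SD, n = 3 each), a difference of 9.76 percentage points. Without SRA-/- replicate 1 the difference was 5.98 points.

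Tlr2 made up much of this share, 48.1% to 70.9% of the surface level in SRA-/- and 40.3% to 61.6% in wild type libraries. Without Tlr2 the surface share was 31.8%, 32.2% and 29.97% in SRA-/- replicates 1, 2 and 3, against 33.0%, 24.7% and 23.6% in wild type replicates 1, 2 and 3, and the groups overlapped. The surface level itself, without Tlr2, was 3.45, 4.72 and 3.47 CPM per kilobase in SRA-/- replicates 1, 2 and 3, against 2.94, 2.60 and 2.73 in wild type replicates 1, 2 and 3, with no overlap. Tlr5 supplied 1.05, 1.90 and 1.06 of it in SRA-/- and 1.53, 0.680 and 0.148 in wild type replicates 1, 2 and 3. With Tlr5 left out as well, the groups overlapped. The median log2 fold change was 0.92 for the surface and 0.08 for the endosomal receptors, beside -0.01 for all tested genes. With 5 genes, the surface median is the value of Tlr2 itself. Of the surface receptors 4 of 5 had values above 0 and of the endosomal receptors 3 of 4, against 48.3% of tested genes. The classes were mixed within: Tlr4, a surface receptor, had the lowest log2 fold change of all 9 receptors, close to that of Tlr8, and Tlr13 the highest of the endosomal ones. No p is given for these sums, and the difference between the classes was not tested.

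**Figure D4:**
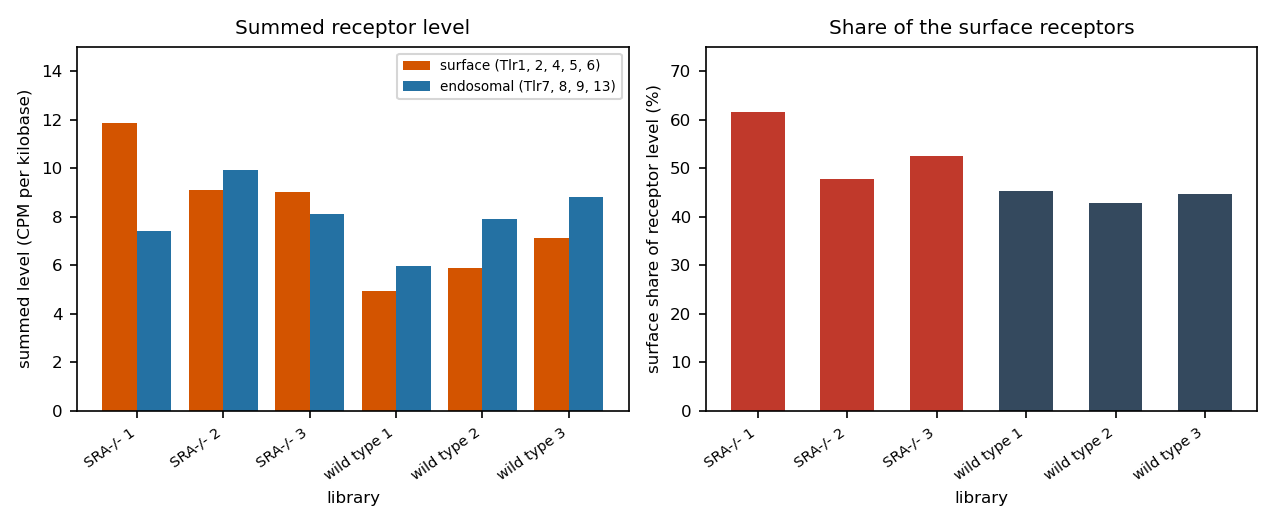
Left, summed level of the 5 surface and 4 endosomal receptors in each library (CPM per kilobase, bars from 0); right, share of the surface receptors in that sum (%), SRA-/- libraries left of wild type libraries. The surface share is 47.8% to 61.5% in SRA-/- and 42.8% to 45.2% in wild type libraries.

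Across the 6 libraries the genes did not all vary together. The log2 levels of Tlr1, Tlr2, Tlr6 and Tlr13 correlated with r between 0.77 and 0.93 in all pairs, and those of Tlr4, Tlr7 and Tlr8 with r between 0.70 and 0.87. Both sets were picked from these values and are not fully apart. Tlr7 and Tlr13 had an r of 0.72, and the other pairs across the sets -0.31 to 0.54. Cd14, in neither set, had an r of 0.73 with Tlr2 and with Tlr13. Tlr5 had r between -0.72 and 0.24 with every other gene. These are descriptions over 6 libraries that share depth and cell makeup, and the first set also shares a direction between the groups.

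Most like Tlr2 over the libraries, among 10020 genes with a mean of at least 5 CPM and no predicted or clone name, were Ptafr, Tle3 and Snx20, with r from 0.985 to 0.994. Those most like Cd14 were Rnps1-ps, Fam174a and Selp, with r from 0.986 to 0.990. Tlr4 was most like Rps10-ps2, Mta1 and Ahsa1, with r from 0.995 to 0.997. For Tlr7 they were Gdf10, Zhx2 and Ly9 (r from 0.97 to 0.99) and for Tlr9 Angptl2, Tnxb and Pwwp2b (r from 0.98 to 0.99). With 6 libraries, 12 to 76 genes reached an r of 0.95 with each of these 5 members.

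Neutrophil markers had higher values in SRA-/- libraries, unevenly among them. Of 14 neutrophil markers 13 were tested and 13 had log2 fold changes above 0 (48.3% of all tested genes did), with a median of 1.63. An unadjusted edgeR p under 0.05 was reached by 11, against 2.32% of tested genes in that direction, 0 passed the adjusted threshold, and none was at 0 counts in all libraries. Groups did not overlap for 4 of the 13, against 3.97% of tested genes in that direction. The median log2 deviation of the tested markers from their means over 6 libraries was 1.28, -0.38 and 1.31 in SRA-/- replicates 1, 2 and 3. It was -1.63, -0.65 and -0.27 in wild type replicates 1, 2 and 3, so the groups overlapped by this measure. The markers summed to 519, 241 and 500 CPM in SRA-/- replicates 1, 2 and 3, against 198, 215 and 222 CPM in wild type replicates 1, 2 and 3. Hdc, the most abundant of them, made up 154, 82.3 and 142 CPM of the sum in SRA-/- replicates 1, 2 and 3. In wild type replicates 1, 2 and 3 it made up 112, 96.2 and 103 CPM. Neutrophils carry TLR2 and TLR6 among others. SRA-/- replicate 2, with the lowest neutrophil sum of its group, had the highest Tlr6, Tlr13, Tlr7, Tlr8 and Tlr9 values of all libraries and a Tlr2 value within the wild type range. The part of neutrophils in the values of Tlr2, Tlr1, Tlr6 and Tlr13 was not tested.

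Kupffer cell markers gave no such split, with 6 of 14 above 0, a median of -0.03 and sums of 1254 to 2159 CPM in SRA-/- and 889 to 2052 CPM in wild type libraries. Of 9 monocyte markers S100a4 was listed at 0 in all libraries, 5 of the 8 tested were above 0, and sums ran from 31.4 to 36.0 CPM in SRA-/- and from 19.3 to 32.1 CPM in wild type libraries. All 9 tested B and plasma cell markers of 10 were above 0 (median 0.71), with sums of 24.5 to 35.1 CPM in SRA-/- and 13.9 to 17.9 CPM in wild type libraries. All 12 sinusoidal endothelial markers were below 0 (median -0.25), with sums of 2826 to 3436 CPM in SRA-/- and 2834 to 5125 CPM in wild type libraries. Of the 8 markers of plasmacytoid dendritic cells, a cell type known for TLR7 and TLR9, 6 of the 7 tested were above 0 (median 0.22). Sums of all 8 were 43.4 to 46.7 CPM in SRA-/- and 41.2 to 43.5 CPM in wild type libraries. Bst2, the most abundant, made up 26.4 to 27.9 CPM of them in SRA-/- and 25.3 to 28.0 CPM in wild type libraries. Values above 0 were found for 2 of 10 stellate cell, 4 of 8 conventional dendritic cell, 9 of 10 tested T and NK cell and 17 of 20 hepatocyte markers, with medians of -0.16, 0.08, 0.46 and 0.20. The most abundant markers of the lists not yet named were Plac8 for monocytes, Pax5 for B cells, Wdfy4 for conventional dendritic cells, Lck for T and NK cells and Alb for hepatocytes. In wild type replicate 1, where 7 of the 10 genes were lowest, the Kupffer, monocyte, neutrophil, conventional dendritic and T and NK cell sums were lowest too.

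Other genes of the pathway were read from 6 lists of 68 genes, of which 67 were tested. None passed edgeR's adjusted test. An unadjusted edgeR p under 0.05 was reached by 5 with higher values in SRA-/- cells (2.32% of tested genes in that direction). It was reached by 2 with lower values (0.896% of tested genes in that direction). Log2 fold changes had a median of 0.07 and were above 0 for 47 of the 67, against 48.3% of all tested genes. The lists of transcription factors and of folding, trafficking and cleavage genes had medians of 0.08 and 0.04.

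Upstream of signalling, the partners of the receptors gave 6 of 9 values above 0. Itgb2, the common beta chain of leukocyte integrins, had 46.9, 56.4 and 48.3 CPM in SRA-/- libraries, against 23.0, 39.5 and 34.9 CPM in wild type libraries, a log2 fold change of 0.64 ± 0.22 (SE). Cd36, a scavenger receptor that helps TLR2 and TLR6 take up ligands, had -0.54 ± 0.23, and Itgam, the alpha chain of the integrin Mac-1, 0.98 ± 0.47. Vtn, a plasma protein made by hepatocytes, was the most abundant of that list, with a log2 fold change of 0.21 ± 0.44. Among trafficking and cleavage genes the protease gene Ctsk stood apart, with 1.22, 2.14 and 1.23 CPM in SRA-/- libraries against 4.30, 5.24 and 6.22 CPM in wild type libraries. Ctsk had a log2 fold change of -1.78 ± 0.32 (SE) and an edgeR adjusted p of 0.352. Slc15a4 and Slc15a3, endosomal peptide transporters, had 0.22 ± 0.22 and 0.30 ± 0.37, and the abundant protease gene Ctsl 0.15 ± 0.30. Unc93b1, picked after its values were seen, had 0.07 ± 0.21.

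Of 6 adaptor genes, Pik3ap1, which links TLRs to phosphoinositide kinase, had 188, 209 and 199 CPM in SRA-/- libraries against 161, 113 and 126 CPM in wild type libraries, without overlap. Its log2 fold change was 0.58 ± 0.20 (SE). Ticam2, the bridging adaptor of TLR4, had 1.19 ± 0.55, and Sarm1 -0.85 ± 0.54. Myd88, again picked after its values were seen, had 32.0, 24.2 and 23.6 CPM in SRA-/- libraries against 13.2, 25.5 and 31.6 CPM in wild type libraries. Among 16 kinases and ubiquitin ligases Irak2 had a log2 fold change of 0.39 ± 0.16, Tab3 -0.39 ± 0.18 and Ikbke 0.33 ± 0.17, while the most abundant, Ikbkg, had -0.15 ± 0.19. No transcription factor had an unadjusted p under 0.05, with Irf5 at 0.29 ± 0.21, Nfkb1 at 0.26 ± 0.24, Rel at 0.16 ± 0.19 and the abundant Jun at 0.08 ± 0.23.

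Negative regulators were above 0 in 9 of 12 cases, with a median of 0.09. Irak3, a kinase-like protein of myeloid cells that restrains TLR signalling, had 8.12, 12.5 and 7.90 CPM in SRA-/- libraries against 4.36, 4.97 and 5.54 CPM in wild type libraries. Each SRA-/- library was above each wild type library, and edgeR gave a log2 fold change of 0.94 ± 0.25 (SE) and an adjusted p of 0.803, 0.00411 unadjusted. Il1rl1, the interleukin 33 receptor, had 1.21 ± 0.47 at under 1 CPM in every library, Zc3h12a, an RNase that degrades cytokine transcripts, 0.34 ± 0.18 (SE), and the abundant phosphatase gene Dusp1 0.01 ± 0.27.

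**Figure D5:**
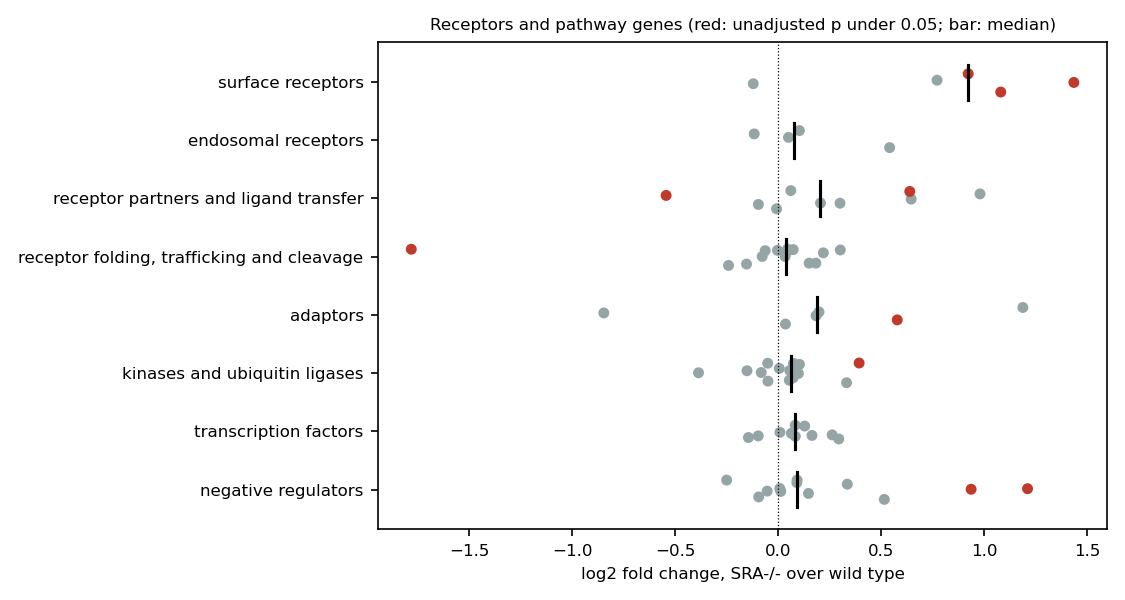
Fitted log2 fold change, SRA-/- over wild type, of the receptors and of the genes of 6 pathway lists, 1 point per tested gene, red where the unadjusted edgeR p was under 0.05, with a bar at the median of each list. The surface receptors have a median of 0.92, which is the value of Tlr2, and the medians of the pathway lists lie between 0.04 and 0.21.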

How the data were processed

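Total RNA of liver non-parenchymal cells was made into libraries with a KAPA kit and ribosomal RNA depletion, per the labels' protocols. The deposited values are raw counts, 1 file per library, not normalized. The authors ran featureCounts 2.0.2 at the exon level, summed per gene name of GENCODE vM26, with the paired flag and without a strand option, per the file headers. STAR, FastQC and build mm39 come from the submitters' processing notes, and the aligner's version is not given in the sources used here. Even numbers made up 68.5% to 71.9% of the counts between 1 and 4 and 53.6% to 55.6% of those between 21 and 100, as when both mates of a fragment are counted, so intervals that take each count as independent are too narrow. No option to count multi-mapping or multi-gene reads was set. Floors and intervals on counts cover counting error only.

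Groups and replicate numbers came from the titles, which call the replicates biological. The fit used edgeR 4.0.16 under R 4.3.3, with filterByExpr (20541 of 53546 genes, all 10 members), TMM factors (0.896 to 1.08), a robust quasi-likelihood fit on group with all 6 libraries, and Benjamini-Hochberg adjustment over all tested genes at 0.05. Standard errors and 95% intervals came from the fold change, its F statistic and the fit's degrees of freedom. CPM used TMM-scaled totals, and levels between genes were divided by the exon length in the files. With 3 against 3 libraries an exact permutation test of one value cannot give a p below 0.1. Every pair of libraries differed beyond sampling noise (chi-square over its degrees of freedom at least 30.9). The procedure was also run on simulated independent counts, which lack the doubled mates and the differences in cell makeup of these libraries. Alternatives used DESeq2 1.42.0, limma 3.58.1 and other normalizations, filters, covariates and sets of libraries.

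Members and lists were chosen with earlier results of these data known. The text names all members, the 3 genes of smallest p and the most abundant gene of each pathway list, the most abundant gene of each marker list, and for 5 members the 3 genes of highest Pearson r over log2 CPM with a prior count of 2. Promoters are RefSeq's on GRCm38.p6.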

Additional observations from a re-analysis of the deposited data

How the results depend on the processing

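Under each of 16 alternatives per gene, all of the 10 genes stayed on the same side of the adjusted threshold by edgeR, DESeq2 or limma-voom. Their log2 fold changes kept direction in 149 cases and reversed in 11, never for Tlr1, Tlr2, Tlr5, Tlr6, Tlr9 and Tlr13. With limma-voom Tlr7 had -0.10 and Cd14 -0.11, and with the hepatocyte list as covariate Tlr4 had 0.026. Leaving out 1 library gave -0.28 to 0.084 for Tlr4, -0.13 to 0.21 for Tlr7, -0.34 to 0.065 for Tlr8 and -0.15 to 0.40 for Cd14. Leaving out wild type replicate 1, lowest for most of the genes, together with SRA-/- replicate 2, a pair chosen after seeing the data, gave -0.29 for Tlr7 and -0.093 for Cd14, and Tlr2 was then the 1 member with an unadjusted p under 0.05. The cause of these changes was not tested. The median of the endosomal receptors was -0.0039 with limma-voom, -0.055 to 0.16 with 1 library left out and -0.14 without that pair, and the surface median ran from 0.87 to 1.21 over all alternatives. The surface share differed by 4.16 points without Tlr2, an alternative added after seeing the data, and by 5.98 to 12.8 points with 1 library left out. Of all genes tested, 10 passed in the reported fit, 68 by DESeq2, 75 by limma-voom, 32 with no filter on low counts, 3 to 40 with 1 library left out and 101 without that pair. The replicate number as a block gave 5 calls and changed no call of the 10 genes. Same-numbered libraries deviated with r of -0.29, -0.14 and -0.13, and no library correlated best with its own number. Deviations from a mean of 3 libraries are tied to each other, so this does not settle whether the numbers pair the samples. Counts were lowest for Tlr1, at 6 to 44 per library, which limits its precision.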
